A study of Mus musculus with 19 samples.

Results

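The mRNA expression of 9 genes of glucocorticoid sensing and response was followed in epididymal white adipose tissue (eWAT), the fat pad beside the testis. These were the receptor genes Nr3c1 and Nr3c2, the cortisone- and 11-dehydrocorticosterone-activating enzyme gene Hsd11b1, and the response genes Fkbp5, Tsc22d3, Zbtb16, Sgk1, Mt1 and Mt2. They were taken by symbol from a table of 24237 genes, and all 9 were found there. Male C57Bl6/J mice, aged 9 to 10 weeks at the outset and carrying no engineered allele, were fed for 17 weeks on 1 of 4 palm oil diets. The low-fat diet (LFD) held 10% and the high-fat diet (HFD) 60% of its energy as fat, and each was given with 0.21% (NormMg) or 0.03% (LowMg) magnesium oxide by weight. NormMg-LFD had 4 mice, and LowMg-LFD, NormMg-HFD and LowMg-HFD had 5 each, with 1 library per mouse. Whole tissue of males of a single strain was taken at a single time. No glucocorticoid level was analysed here, so that the values are mRNA levels and not glucocorticoid exposure.

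Glucocorticoids such as corticosterone, the main one of mice, enter cells and bind the glucocorticoid receptor, the product of Nr3c1. The bound receptor leaves its chaperones, moves into the nucleus and turns genes on or off from glucocorticoid response elements in DNA. The mineralocorticoid receptor, the product of Nr3c2, binds the same hormone, and is little shielded from it where the inactivating enzyme Hsd11b2 is scarce. Inside adipose tissue, 11β-hydroxysteroid dehydrogenase type 1 (Hsd11b1) makes active hormone from its inert keto form with NADPH that H6pd supplies. Glucocorticoids are known in fat for driving adipocyte differentiation, lipid storage and lipolysis, and for damping inflammation.

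The 19 libraries held 12986441 to 13027028 reads each, of which 86.12% to 90.41% mapped. The 12 adipocyte markers were expressed in every group, with a summed level of 13939 to 31327 FPKM (mapped fragments scaled for transcript length and library size, a level that can be compared between genes). The 12 macrophage markers summed to 783 to 904 FPKM in NormMg-LFD, 609 to 1207 in LowMg-LFD, 2441 to 3862 in NormMg-HFD and 887 to 2167 in LowMg-HFD. Some LFD libraries stood apart. In NormMg-LFD replicate 3, 12 exocrine pancreas markers summed to 1756 FPKM, against at most 52.6 in any other mouse. The study's methods name a LowMg-HFD sample as left out for pancreatic tissue, but in the LowMg-HFD libraries this sum was 21.1 to 44.6. The labels do not name that sample, and all 5 LowMg-HFD mice entered the main tests. Without LowMg-HFD replicate 4, at a filter of log2(FPKM + 1) over 3, 8808 genes passed. The study kept 8808 transcripts. No other mouse was left out at that filter, so that this does not settle which sample it was. In LowMg-LFD replicate 4, 6 epididymis markers summed to 188 FPKM, against at most 4.02 elsewhere. Values without these mice are given where a call changed.

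Per length, the metallothionein genes were the most abundant of the 9. Averaged over all mice, Mt1 had 214 FPKM (place 323 of 24237 genes by mean level) and Mt2 136 FPKM. Hsd11b1 (75.9 FPKM) and Tsc22d3 (66 FPKM) came next. Nr3c1 (35.0), Sgk1 (24.7), Fkbp5 (21.3) and Zbtb16 (15.6 FPKM) followed. Nr3c2 was the lowest at 2.55 FPKM, so that the glucocorticoid receptor mRNA was far more abundant than the mineralocorticoid receptor mRNA in every mouse.

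**Figure D1:**
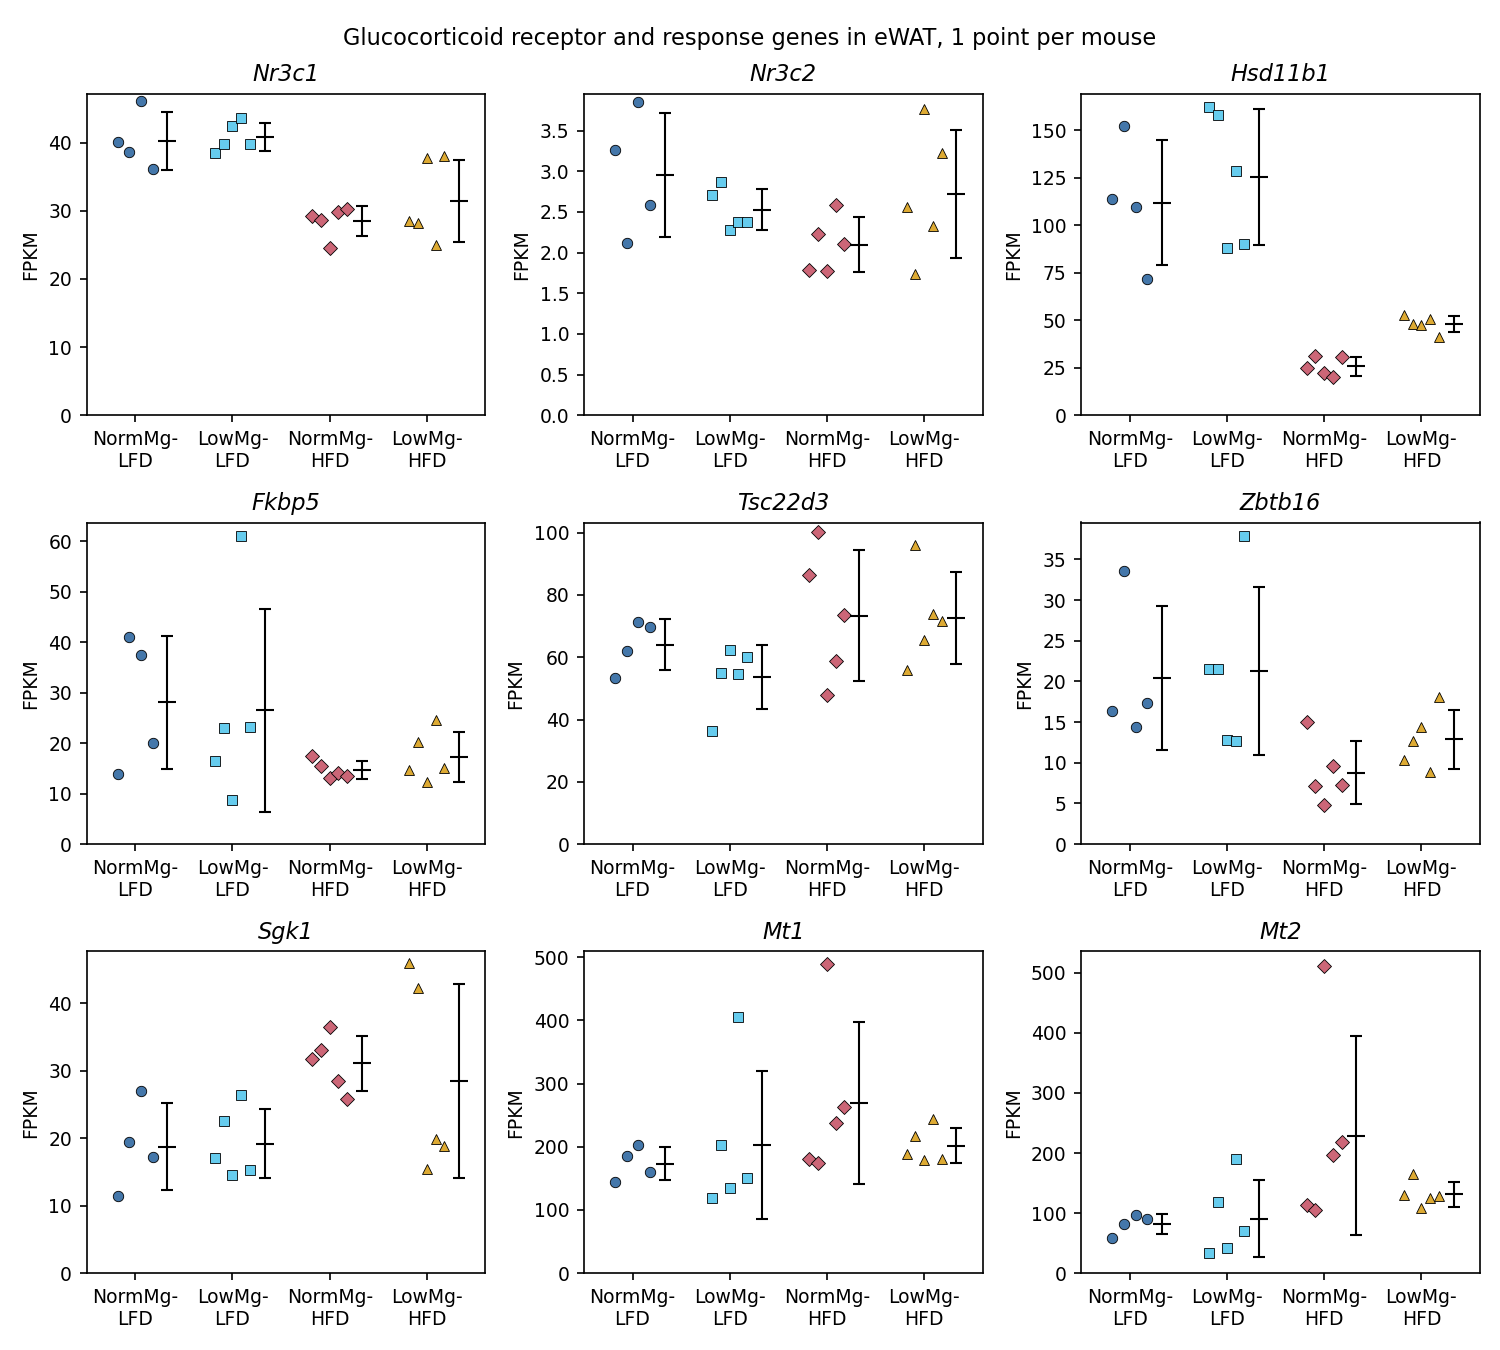
FPKM of the 9 genes (vertical axes, starting at 0) in each mouse (points) of the 4 diet groups, with the mean and SD of each group as a bar. Hsd11b1 sits at 71.7 to 162 FPKM on the LFD, 41.1 to 52.6 in LowMg-HFD and 20.2 to 31.4 in NormMg-HFD.

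Differences were tested with limma on log2(FPKM + 1), with p-values adjusted over all genes tested, and a gene was called at an adjusted p under 0.05. Of the 9 genes, 8 passed the filter of a mean over 8 FPKM in a group, and Nr3c2 was read from the same fit over genes above 1 FPKM. Most calls were made between the fat contents at normal Mg2+. Between NormMg-HFD and NormMg-LFD, 3 genes were lower on the HFD (Hsd11b1, Nr3c1 and Zbtb16) and 2 were higher (Mt2 and Sgk1), while 37.4% of the 8336 genes tested were called there (24.6% higher and 12.8% lower). With each library centred on its median, the genes called higher and lower in that comparison were 1580 and 1572 in place of 2048 and 1066, and no called member changed sign. Between LowMg-HFD and LowMg-LFD, Hsd11b1 and Nr3c1 were lower on the HFD, and 15.9% of all genes tested were called (12.4% higher and 3.51% lower). Between LowMg-HFD and NormMg-HFD, Hsd11b1 alone of the 9 was called, higher at low Mg2+, and 18.5% of all genes were called (5.58% higher and 12.9% lower). Between LowMg-LFD and NormMg-LFD none of the 9 was called, and none of the 8336 genes tested either (0.0%), by limma, although 547 of them had an unadjusted p under 0.05. For Nr3c2 the shares called among 13454 genes above 1 FPKM were 30.0%, 10.4%, 12.5% and 0.0% in the same order, and 0.357% for the difference between the Mg2+ effects on the 2 diets, the interaction. The groups did not overlap for Hsd11b1, Nr3c1 and Mt2 in the fat comparison at normal Mg2+ (32.1% of all genes), for Hsd11b1 and Nr3c1 in that at low Mg2+ (9.3%), and for Hsd11b1 in the Mg2+ comparison on the HFD (12.8%). On the LFD no member was without overlap between the Mg2+ groups (1.79%). Without the mice high in pancreas and in epididymis markers (17 samples, a fit added once the data had been seen), 4 of the 9 genes were called in the fat comparison at normal Mg2+, where Sgk1 was lost (adjusted p = 0.0647), and 1 at low Mg2+, where Nr3c1 was lost (adjusted p = 0.0519), while Hsd11b1 kept its 3 calls. The median difference of the 9 genes was -0.34 in the fat comparison at normal Mg2+, against 0.07 over all genes tested. It was 0.12 in the Mg2+ comparison on the HFD, against -0.04. Over the 8 genes of the main filter, without Nr3c2, these medians were -0.16 and 0.07. The comparisons share groups, so that a low NormMg-HFD value enters 2 of them.

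**Figure D2:**
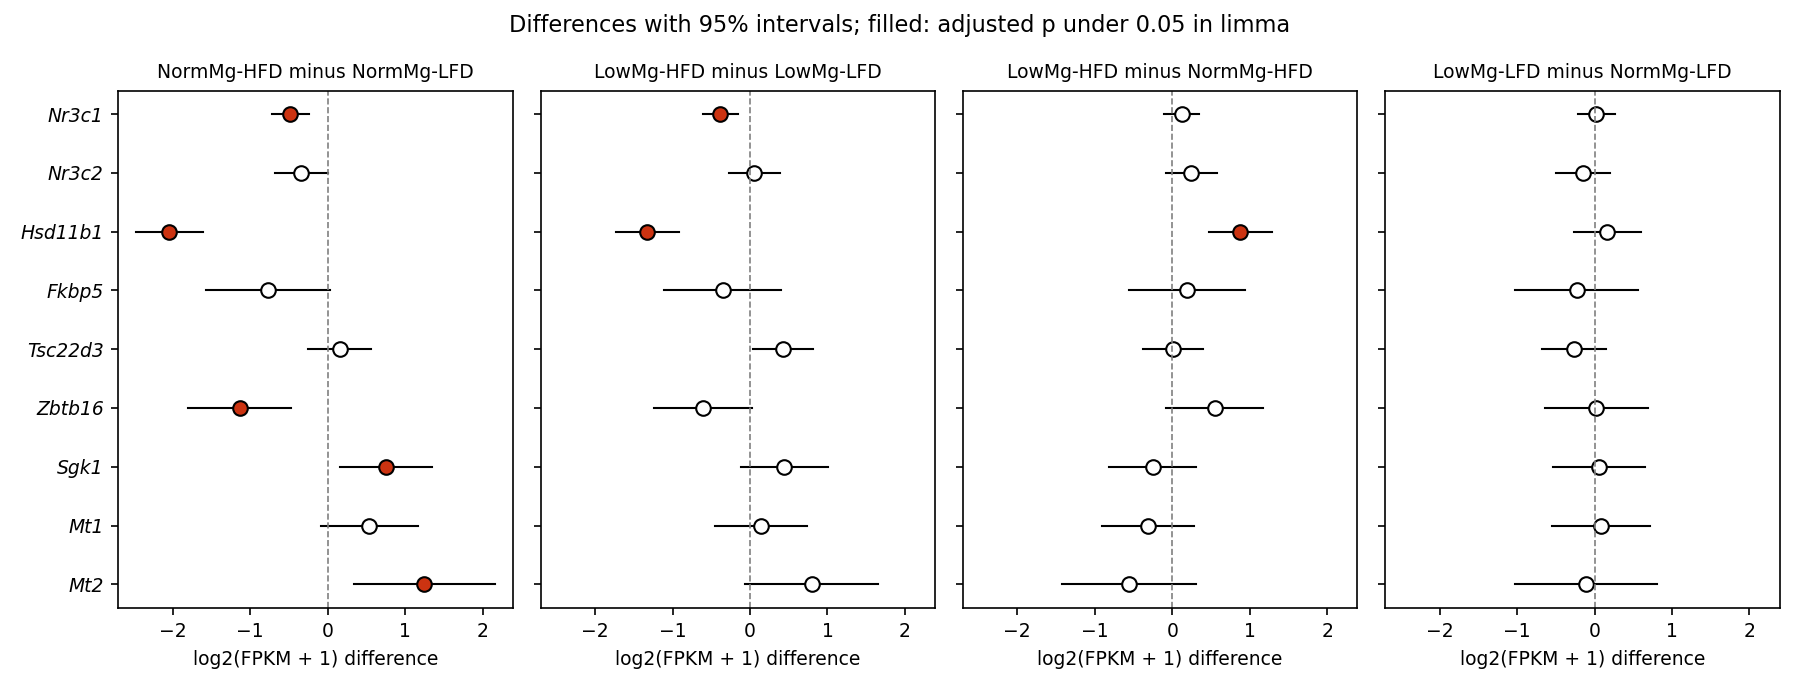
Differences in log2(FPKM + 1) of the 9 genes (horizontal axis) with 95% intervals (lines) in the 4 comparisons between diets, filled where the adjusted p was under 0.05. Hsd11b1 was filled in 3 panels, Nr3c1 in 2 and no gene in the Mg2+ comparison on the LFD.

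The glucocorticoid receptor gene Nr3c1 was lower on the HFD at both Mg2+ contents. In NormMg-LFD it had 40.0, 38.6, 46.1 and 36.1 FPKM in replicates 2 to 5, and in LowMg-LFD 38.5, 39.8, 42.5, 43.6 and 39.8 FPKM in replicates 1 to 5. These LFD values form a narrow band with no gap between the Mg2+ groups. In NormMg-HFD it had 29.2, 28.6, 24.6, 29.8 and 30.2 FPKM, and in LowMg-HFD 28.5, 28.2, 37.7, 25.0 and 38.0 FPKM. Each NormMg-HFD mouse was below every NormMg-LFD mouse, and each LowMg-HFD mouse was below every LowMg-LFD mouse, although LowMg-HFD replicates 3 and 5 came within 1 FPKM of that group. The mean fell from 40.2 ± 4.25 (SD, n = 4) to 28.5 ± 2.26 FPKM (n = 5) at normal Mg2+, a log2 difference of -0.48 (SE 0.11, 95% interval -0.72 to -0.24, adjusted p = 0.0025). At low Mg2+ it fell from 40.8 ± 2.11 to 31.5 ± 5.999 FPKM (n = 5 each), a log2 difference of -0.38 (SE 0.11, 95% interval -0.61 to -0.16, adjusted p = 0.0203). The call at low Mg2+ was lost without LowMg-HFD replicate 1 (adjusted p = 0.0576) or replicate 2 (adjusted p = 0.0624), and when only those 2 groups were fitted (adjusted p = 0.0707). Low Mg2+ on the HFD gave a difference of 0.12 (95% interval -0.10 to 0.35, adjusted p = 0.451). Endothelial markers varied with Nr3c1 within groups, with a Pearson r of 0.61 over 19 mice between Nr3c1 and the mean of 8 such markers (0.53 for Nr3c2). Of these 8 markers, 2 were lower and none higher in NormMg-HFD than in NormMg-LFD, beside 12.8% and 24.6% of all genes tested. In LowMg-HFD, 2 of them were higher and none lower than in LowMg-LFD, beside 12.4% and 3.51% of all genes. Their sum was 284 to 335 FPKM in NormMg-LFD, 277 to 319 in LowMg-LFD, 253 to 334 in NormMg-HFD and 309 to 357 in LowMg-HFD. The mean of 12 adipocyte markers had a Pearson r of 0.45 with Nr3c1 within groups (0.30 for Nr3c2). Of these 12, 9 were lower and 1 higher in NormMg-HFD than in NormMg-LFD. In LowMg-HFD, 3 of the 12 were lower and 1 higher than in LowMg-LFD. The part of endothelial or adipocyte content in the Nr3c1 values was not tested. In bulk tissue, fewer cells of a type and less RNA per cell cannot be told apart, here and for the genes that follow.

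The mineralocorticoid receptor gene Nr3c2 stood at 1.73 to 3.85 FPKM across all mice, and all 4 groups overlapped. Its means were 2.96 ± 0.76 in NormMg-LFD, 2.52 ± 0.25 in LowMg-LFD, 2.10 ± 0.34 in NormMg-HFD and 2.72 ± 0.79 FPKM in LowMg-HFD. The difference between NormMg-HFD and NormMg-LFD was -0.34 (95% interval -0.69 to 0.0066, adjusted p = 0.132). Between LowMg-HFD and LowMg-LFD it was 0.06 (95% interval -0.27 to 0.38, adjusted p = 0.872), and its sign turned when each library was centred on its median (-0.09) or quantile normalized (-0.10).

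Hsd11b1, on chromosome 1 (193221634 to 193264075, minus strand, GRCm38), differed more than the 8 other genes in the 3 comparisons in which it was called. In NormMg-LFD it had 114, 152, 110 and 71.7 FPKM in replicates 2 to 5, and in LowMg-LFD 162, 158, 88.0, 129 and 90.1 FPKM. These 2 groups overlapped across most of their range. In NormMg-HFD it had 24.7, 31.4, 22.3, 20.2 and 30.6 FPKM, and in LowMg-HFD 52.6, 47.9, 47.2, 50.6 and 41.1 FPKM. Every HFD mouse was below every LFD mouse, and every LowMg-HFD mouse was above every NormMg-HFD mouse, with no overlap. At normal Mg2+ the HFD mean was 4.12-fold lower than the LFD mean on the log2(FPKM + 1) scale, a difference of -2.04 (SE 0.21, 95% interval -2.47 to -1.61, adjusted p = 1.36e-06). At low Mg2+ it was 2.51-fold lower, a difference of -1.33 (SE 0.19, 95% interval -1.73 to -0.92, adjusted p = 0.000543). On the HFD, low Mg2+ gave 1.84-fold higher expression, a difference of 0.88 (SE 0.19, 95% interval 0.47 to 1.28, adjusted p = 0.00485), with means of 47.9 ± 4.34 and 25.8 ± 4.97 FPKM (n = 5 each). These 3 calls were kept in all 29 alternatives, in which the adjusted p of the Mg2+ comparison on the HFD ran from 0.00365 to 0.0183. On the LFD the same Mg2+ comparison gave 0.16 (95% interval -0.27 to 0.59, adjusted p = 0.901). The difference between the Mg2+ effects on the HFD and the LFD was 0.72 (95% interval 0.13 to 1.31), with an unadjusted p of 0.0201 and an adjusted p of 0.161, so that it did not pass over all genes, of which 1.25% did. That share was not stable: its 104 genes became 482 without LowMg-HFD replicate 2 and 0 with a replicate block.

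The adipocyte markers moved with Hsd11b1 in part. Of the 12 markers, 8 were higher at low Mg2+ on the HFD and none was lower, and 9 were lower and 1 higher in NormMg-HFD than in NormMg-LFD. In the fat comparison at low Mg2+, in which Hsd11b1 was also called, 3 were lower, 1 was higher and 8 did not pass, with a median difference of -0.25. Their mean log2(FPKM + 1) was 9.62 to 9.99 in NormMg-LFD, 9.94 to 10.1 in LowMg-LFD, 8.73 to 9.39 in NormMg-HFD and 9.55 to 9.999 in LowMg-HFD. Set against this mean, Hsd11b1 lay at -3.79 to -2.71 in NormMg-LFD and -3.49 to -2.67 in LowMg-LFD. It lay at -4.60 to -4.06 in NormMg-HFD and -4.49 to -3.86 in LowMg-HFD. Relative to the adipocyte markers, then, the HFD groups stayed below the LFD groups without overlap, whereas NormMg-HFD and LowMg-HFD overlapped. The part of adipocyte content in the Hsd11b1 differences was not tested. Within groups, after the group mean was subtracted, Hsd11b1 and the adipocyte marker mean had a Pearson r of 0.21 over 19 mice.

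**Figure D3:**
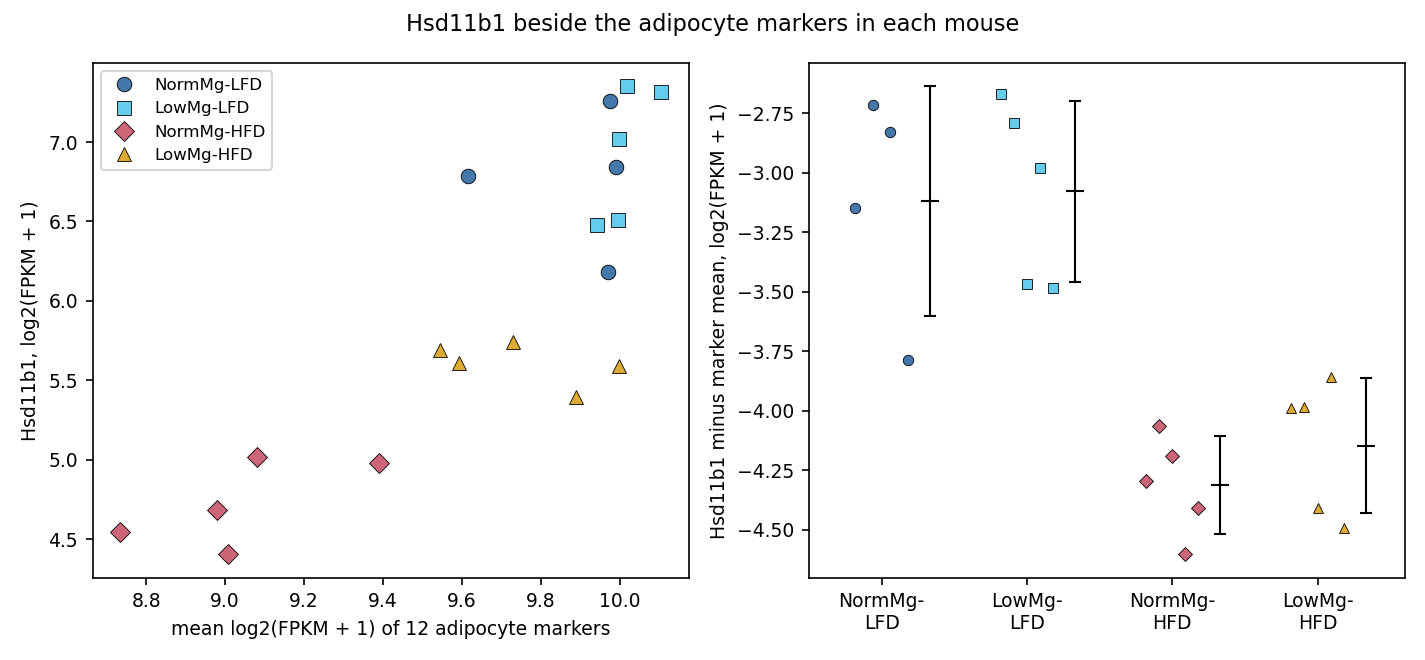
Left, Hsd11b1 (vertical axis, log2(FPKM + 1)) against the mean of 12 adipocyte markers (horizontal axis, log2(FPKM + 1)) in each mouse. Right, the difference between the 2 by group, with mean and SD bars; the HFD groups lie between -4.60 and -3.86 and the LFD groups between -3.79 and -2.67.

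H6pd, which supplies NADPH to the Hsd11b1 enzyme in the endoplasmic reticulum, had its lowest mean in NormMg-HFD. Its means were 144 ± 22.7 in NormMg-LFD, 141 ± 28.5 in LowMg-LFD, 88.5 ± 17.0 in NormMg-HFD and 134 ± 24.5 FPKM in LowMg-HFD. It was called in the fat comparison at normal Mg2+ (-0.70, adjusted p = 0.00339) and in the Mg2+ comparison on the HFD (0.59, adjusted p = 0.0154), and not in the fat comparison at low Mg2+ (-0.07, 95% interval -0.41 to 0.27, adjusted p = 0.82). The level of Hsd11b1 over that of H6pd was 0.79 ± 0.22 and 0.91 ± 0.32 in NormMg-LFD and LowMg-LFD, and 0.30 ± 0.07 and 0.37 ± 0.11 in NormMg-HFD and LowMg-HFD. Hsd11b2, whose enzyme runs the opposite reaction, did not exceed 1.03 FPKM in any mouse.

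Fkbp5 encodes a co-chaperone that holds the receptor in a state of low hormone affinity and is itself induced by glucocorticoids. Its LFD values were wide, with 13.9, 41.1, 37.4 and 20.1 FPKM in NormMg-LFD and 16.5, 23.1, 8.69, 61.0 and 23.2 FPKM in LowMg-LFD. The highest mice of these groups were NormMg-LFD replicate 3 and LowMg-LFD replicate 4, the libraries with pancreas and epididymis markers. In NormMg-HFD the values lay within 13.1 to 17.4 FPKM, and in LowMg-HFD within 12.2 to 24.6 FPKM, overlapping both LFD groups. The difference between NormMg-HFD and NormMg-LFD was -0.77 (SE 0.38, 95% interval -1.57 to 0.02, adjusted p = 0.12), and it was -0.55 without NormMg-LFD replicate 3 (adjusted p = 0.325). It was called in 3 of 29 alternatives. These were the fit without LowMg-LFD replicate 4 (-0.77, adjusted p = 0.0472), that without NormMg-LFD replicate 2 (-1.05, adjusted p = 0.0468) and that of only the groups compared (-0.77, adjusted p = 0.0361).

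Tsc22d3 encodes GILZ, a leucine zipper protein that carries part of the anti-inflammatory action of glucocorticoids. It stood at 53.2 to 71.4 FPKM in NormMg-LFD, 36.3 to 62.5 in LowMg-LFD, 47.8 to 100 in NormMg-HFD and 56.0 to 96.1 FPKM in LowMg-HFD. All comparisons overlapped and none was called. The largest difference was that between LowMg-HFD and LowMg-LFD, at 0.43 (95% interval 0.04 to 0.82, adjusted p = 0.123), with 4 of 5 LowMg-HFD mice above every LowMg-LFD mouse.

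Zbtb16 encodes PLZF, a zinc finger repressor that is strongly induced by glucocorticoids in many cells. It had 16.4, 33.6, 14.4 and 17.3 FPKM in NormMg-LFD and 21.5, 21.5, 12.8, 12.7 and 37.9 FPKM in LowMg-LFD. In NormMg-HFD it had 15.0, 7.18, 4.84, 9.67 and 7.31 FPKM, so that 4 of 5 mice were below every NormMg-LFD mouse. In LowMg-HFD it had 10.4, 12.7, 14.4, 8.88 and 18.1 FPKM, between the NormMg-HFD and the LFD means. The mean was 20.4 ± 8.87 in NormMg-LFD and 8.80 ± 3.86 FPKM in NormMg-HFD, a difference of -1.14 (SE 0.32, 95% interval -1.80 to -0.47, adjusted p = 0.00839). It was -0.88 without NormMg-LFD replicate 3 and still called (adjusted p = 0.0449). Low Mg2+ on the HFD gave 0.55 (95% interval -0.08 to 1.18, adjusted p = 0.215). Of the 6 response genes in the fat comparison at normal Mg2+, Zbtb16 was thus lower on the HFD, Mt2 and Sgk1 were higher, and Fkbp5, Tsc22d3 and Mt1 did not pass.

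Sgk1 encodes a serine/threonine kinase of ion transport and cell survival that is induced by glucocorticoids and mineralocorticoids. The RefSeq promoter table (GRCm38.p6) lists several starts for it, and the 250 bases before 1 of these (chr10:21993640-21993889, plus strand, inside the gene and in no exon of the GENCODE M21 annotation) are shown because they hold a complete palindromic glucocorticoid response element, in capitals.
Sgk1: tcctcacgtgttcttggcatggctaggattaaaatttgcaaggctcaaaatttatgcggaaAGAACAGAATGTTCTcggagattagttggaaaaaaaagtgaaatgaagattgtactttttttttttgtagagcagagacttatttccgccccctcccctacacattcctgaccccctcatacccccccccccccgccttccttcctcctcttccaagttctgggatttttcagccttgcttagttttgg
The letters searched were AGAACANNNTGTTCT, which read the same on both strands and contain the single arm AGAACA at each end. Of 32851 promoter windows of this table, 3 (0.00913%) held the complete element within 250 bases before and 50 after the start. Its first base lay at -189 from the Sgk1 start. The single arm, searched on both strands, was in 6233 of these windows (19%), and among the 7 members with windows it was found for Sgk1 and Tsc22d3. None of the windows of Hsd11b1, Nr3c2, Fkbp5, Mt1 or Mt2 held these letters, which says nothing of elements elsewhere.

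In NormMg-LFD, Sgk1 had 11.5, 19.4, 26.9 and 17.2 FPKM, and in LowMg-LFD 17.1, 22.6, 14.6, 26.4 and 15.3 FPKM. In NormMg-HFD it had 31.7, 33.1, 36.4, 28.4 and 25.9 FPKM, with 4 of 5 mice above every NormMg-LFD mouse. In LowMg-HFD it split, with 45.9 and 42.2 FPKM in replicates 1 and 2 and 15.4, 19.9 and 18.8 FPKM in replicates 3 to 5. The former were the highest of all mice and the latter lay within the LFD range. At normal Mg2+ the difference between HFD and LFD was 0.75 (SE 0.28, 95% interval 0.16 to 1.34, adjusted p = 0.0445), and it was called in 15 of 29 alternatives, with an adjusted p of up to 0.167. Median centring gave 0.65 (adjusted p = 0.0652). At low Mg2+ it was 0.44 (95% interval -0.12 to 1.00, adjusted p = 0.286).

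The macrophage markers moved with Sgk1 in part, also inside LowMg-HFD. Their sum was 2167 and 1925 FPKM in LowMg-HFD replicates 1 and 2, and 1372, 887 and 1317 FPKM in replicates 3 to 5. Among replicates 3 to 5, the highest sum went with the lowest Sgk1. The sums of replicates 1 and 2 lay below those of every NormMg-HFD mouse (2441 to 3862 FPKM), although their Sgk1 was higher. Over the 19 mice, with group means subtracted, Sgk1 and the mean of the macrophage markers had a Pearson r of 0.71. The tested genes closest to Sgk1 by the same measure were Soat1 (r = 0.92), Trem2 (r = 0.90) and Ctsk (r = 0.90). Trem2, a lipid receptor of macrophages, was at 110 and 99.4 FPKM in LowMg-HFD replicates 1 and 2 and at 21.1 to 25.3 FPKM in replicates 3 to 5. It was at 115 to 257 FPKM in NormMg-HFD and at 3.19 to 11.96 FPKM in the LFD groups. The part of macrophage content in the Sgk1 values was not tested.

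**Figure D4:**
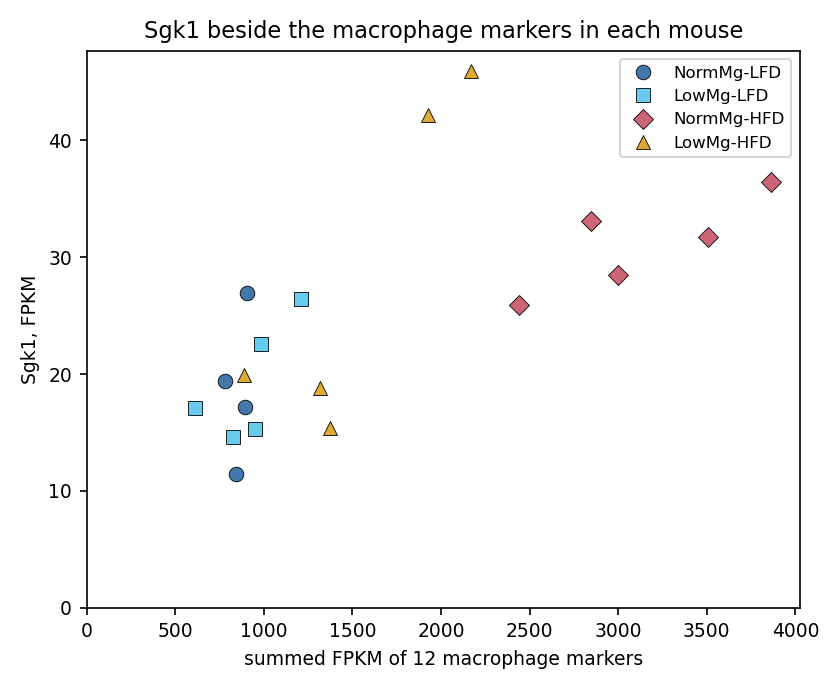
Sgk1 (vertical axis, FPKM) against the summed FPKM of 12 macrophage markers (horizontal axis) in each mouse of the 4 groups. LowMg-HFD replicates 1 and 2 lie at 42.2 and 45.9 FPKM of Sgk1, apart from the other LowMg-HFD mice at 15.4 to 19.9.

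Mt1 and Mt2 encode metallothioneins, small cysteine-rich proteins that bind zinc and copper and are induced by metals through MTF1 as well as by glucocorticoids. They lie beside each other on chromosome 8 (Mt2 at 94172664 to 94173568 and Mt1 at 94179082 to 94180327, both on the plus strand, GRCm38). The 250 bases before the RefSeq start of each (Mt2 at chr8:94172368-94172617, Mt1 at chr8:94178839-94179088) are shown because their mRNAs moved together, with the metal response cores TGCACNC and TGCGCNC, on either strand, in capitals.
Mt2: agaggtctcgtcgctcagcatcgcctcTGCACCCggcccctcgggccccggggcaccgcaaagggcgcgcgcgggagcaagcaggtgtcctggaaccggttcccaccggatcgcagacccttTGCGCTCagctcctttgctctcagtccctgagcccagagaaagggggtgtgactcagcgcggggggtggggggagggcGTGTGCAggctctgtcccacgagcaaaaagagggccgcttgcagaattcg
Mt1: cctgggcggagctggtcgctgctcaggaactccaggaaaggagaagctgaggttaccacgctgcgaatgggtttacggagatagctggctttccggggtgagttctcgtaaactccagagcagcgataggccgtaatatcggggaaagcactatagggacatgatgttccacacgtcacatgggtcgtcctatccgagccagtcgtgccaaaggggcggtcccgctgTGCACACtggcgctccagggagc
Counting also the 50 bases after the start, Mt2 held 4 such cores and Mt1 held 3. At least 3 were found in 1.97% of all 32851 windows and at least 4 in 0.517%. The Mt2 stretch lies wholly in an exon of the antisense gene Gm45774, and the last 7 bases of the Mt1 stretch lie in the 5′ UTR of Mt1 in GENCODE M21. Mt1 shared no 50-base word with another annotated transcript, so that Mt1 and Mt2 reads were separable, whereas 45.8% of the Mt2 words lie in Gm45774 as well. The strand setting of the libraries is not given in the sources used here, and reads from this shared stretch cannot be assigned to Mt2 or Gm45774 without it.

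Mt2 was higher on the HFD at normal Mg2+. It had 58.3, 82.3, 96.9 and 89.8 FPKM in NormMg-LFD and 113, 105, 511, 197 and 218 FPKM in NormMg-HFD. Every NormMg-HFD mouse was above every NormMg-LFD mouse, and replicate 3 was far above the rest. The difference was 1.25 (SE 0.44, 95% interval 0.33 to 2.16, adjusted p = 0.0302), and it was 0.89 without NormMg-HFD replicate 3 (adjusted p = 0.0926). The call was also lost without NormMg-LFD replicate 2 (adjusted p = 0.0906), NormMg-LFD replicate 3 (0.0578), NormMg-HFD replicate 4 (0.0509) or NormMg-HFD replicate 5 (0.0536). With no filter (adjusted p = 0.0814) or quantile normalization (1.06, adjusted p = 0.0512), Mt2 was not called either. In LowMg-HFD it had 131, 165, 108, 124 and 128 FPKM, and in LowMg-LFD 33.9, 118, 42.7, 190 and 70.1 FPKM. These groups overlapped through LowMg-LFD replicates 2 and 4, and their difference was 0.79 (95% interval -0.07 to 1.66, adjusted p = 0.206). Of the 12 macrophage markers, 11 were higher and 1 lower in NormMg-HFD than in NormMg-LFD. On the HFD, 11 were lower and none higher at low Mg2+, where Mt2 was not called (-0.56, 95% interval -1.42 to 0.30, adjusted p = 0.367). Within groups Mt2 and the mean of these markers had a Pearson r of 0.54 over 19 mice (0.44 for Mt1). With the mean of 6 epididymis markers, high in LowMg-LFD replicate 4, r was 0.50 for Mt2 (Spearman rho 0.163) and 0.67 for Mt1 (rho 0.395). The part of macrophage or epididymis content in the Mt2 values was not tested.

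Mt1 was not called in any comparison. It had 144, 185, 203 and 161 FPKM in NormMg-LFD and 119, 203, 135, 405 and 151 FPKM in LowMg-LFD. In NormMg-HFD it had 181, 175, 489, 238 and 263 FPKM, and in LowMg-HFD 189, 217, 179, 243 and 181 FPKM. The highest mice, NormMg-HFD replicate 3 and LowMg-LFD replicate 4, were those of Mt2 in the same groups. The difference between NormMg-HFD and NormMg-LFD was 0.54 (SE 0.30, 95% interval -0.09 to 1.17, adjusted p = 0.17), and Mt1 was at 0.30 without NormMg-HFD replicate 3 (adjusted p = 0.434).

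The balance of the pair was also set out by diet. The level of Mt2 over that of Mt1 was 0.47 ± 0.07 in NormMg-LFD (0.41 to 0.56) and 0.42 ± 0.12 in LowMg-LFD (0.29 to 0.58). It was 0.79 ± 0.18 in NormMg-HFD (0.60 to 1.05) and 0.66 ± 0.10 in LowMg-HFD (0.51 to 0.76). At normal Mg2+ the HFD and LFD ratios did not overlap, and at low Mg2+ they did. This ratio was chosen after the values were seen and was not tested. In LowMg-LFD replicate 4, the mouse with epididymis markers, Mt1 and Mt2 were both the highest of their group.

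**Figure D5:**
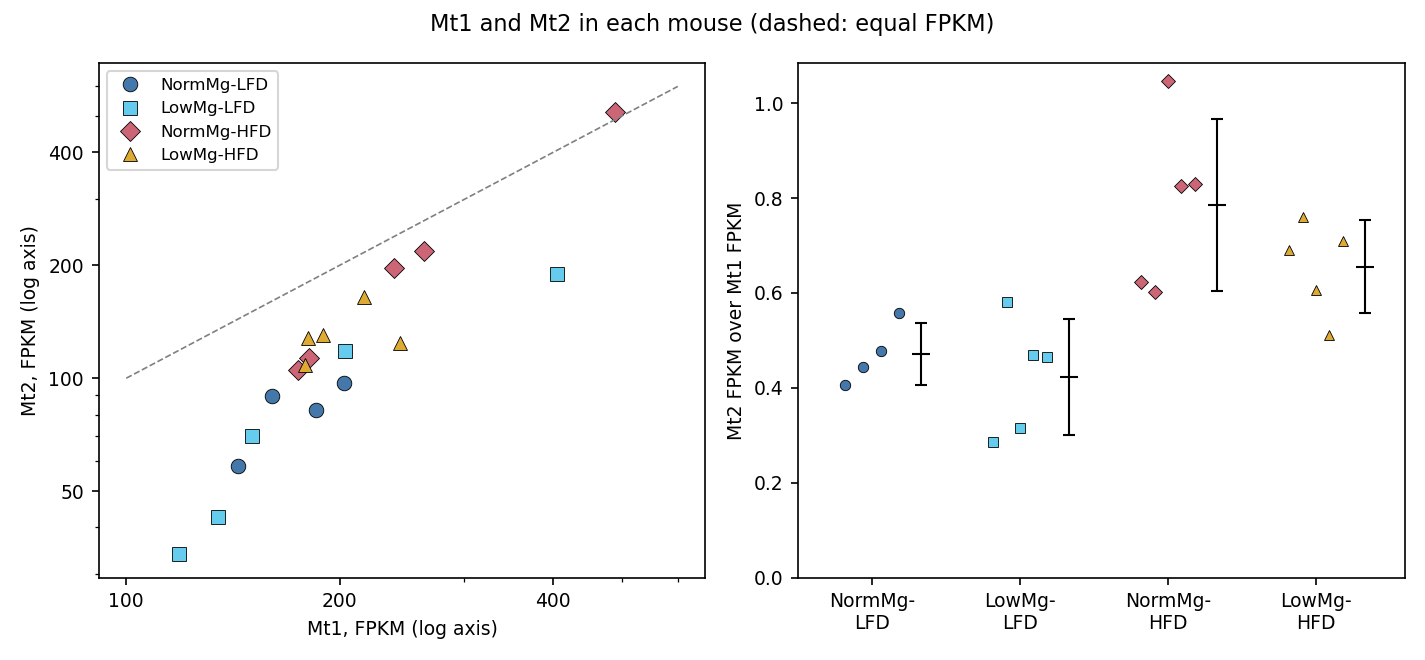
Left, Mt2 against Mt1 in each mouse (FPKM, log axes), with a dashed line at equal levels. Right, the ratio of Mt2 to Mt1 by group with mean and SD bars; it lies at 0.60 to 1.05 in NormMg-HFD and at 0.41 to 0.56 in NormMg-LFD.

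With the group means subtracted, few of the 9 genes moved together from mouse to mouse. Of 36 pairs over 19 mice, 5 had a Pearson r over 0.5 and none was under -0.5. Mt1 and Mt2 had an r of 0.94, and of 0.89 without the 2 mice farthest out. Nr3c1 and Nr3c2, the receptor pair, had an r of 0.68, and of 0.69 without the 2 farthest mice. Fkbp5 had an r of 0.61 with Mt1 and 0.52 with Mt2, which dropped to 0.28 and 0.18 without LowMg-LFD replicates 3 and 4. Its r with Sgk1 was 0.51, and 0.44 without the same mice. Fkbp5 and Zbtb16, both read-outs of the receptor, had an r of 0.08, and Nr3c1 had an r of -0.07 with Hsd11b1. These values are a description over mice of nearly equal read number whose cell mixture differed, as the marker sums show.

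Among the genes tested, those closest to Nr3c1 by the same measure were Abca3 (r = 0.86), Gbp9 (0.85) and Bmp6 (0.83). Those closest to Hsd11b1 were Prkra (0.81), Vnn3 (0.77) and Trim44 (0.76), and those closest to Fkbp5 were Abhd2 (0.90), Adgrg1 (0.90) and Bclaf1 (0.86). After Mt2, Mt1 was closest to the ribosomal protein genes Rps24 (0.90) and Rps16 (0.88), and after Mt1, Mt2 was closest to Rplp2 (0.90) and Eef1a1 (0.89). For Tsc22d3 the closest was Hdlbp (0.81), for Zbtb16 Fam214a (0.80) and for Nr3c2 Cnot2 (0.78). Here and for Sgk1, these are the highest of the correlations with 8336 genes, a choice that by itself raises r. None was tested.

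Other genes induced by glucocorticoids moved in both directions. Of a list of 20, 17 were tested. Between NormMg-HFD and NormMg-LFD, 5 were higher and 4 lower, beside 24.6% and 12.8% of all genes tested. The higher ones were Cdkn1a, a cell cycle inhibitor (2.10), Pdk4, which spares glucose (1.67), Angptl4, an inhibitor of lipoprotein lipase (1.60), Anxa1, an anti-inflammatory protein (1.21), and the transcription factor gene Cebpb (1.15). The lower ones were the Krüppel-like factor genes Klf15 (-1.38) and Klf9 (-0.55), the sulfotransferase gene Sult1a1 (-0.95) and the phosphatidate phosphatase gene Lpin1 (-0.59). Their median difference was 0.18, beside 0.07 over all genes tested. Between LowMg-HFD and NormMg-HFD, Lpin1 (0.57, adjusted p = 0.00726) and Klf15 (0.55, adjusted p = 0.0309) were higher, and Cdkn1a (-0.96, adjusted p = 0.0336), Cebpb (-0.57, adjusted p = 0.0328) and Anxa1 (-0.56, adjusted p = 0.0489) were lower. The 12 others did not pass, and 18.5% of all genes were called in that comparison. Between LowMg-HFD and LowMg-LFD, Anxa1 (1.07), Ddit4 (0.92) and Cebpb (0.57) were higher and Klf15 (-0.64) and Sult1a1 (-0.52) lower, beside 12.4% and 3.51% of all genes. On the LFD none of the 17 was called for Mg2+.

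All 14 receptor chaperone and coregulator genes were tested. At normal Mg2+ the chaperone genes Hspa8 (0.82), Stip1 (0.35) and Hsp90ab1 (0.34) were higher on the HFD and the coactivator gene Ncoa1 was lower (-0.43), where 37.4% of all genes tested were called. None of the 14 was called for Mg2+ on the HFD (18.5% of all genes) or on the LFD (0.0%). Of 6 mineralocorticoid targets 2 were tested, and Nedd4l, a ubiquitin ligase of the sodium channel, was higher on the HFD at normal Mg2+ (1.31) and at low Mg2+ (0.80) and, on the HFD, lower at low Mg2+ (-0.66). Of 8 genes of the metal response, 7 were in the table and 3 were tested. Hmox1, the stress-induced haem oxygenase, was higher in NormMg-HFD than in NormMg-LFD (2.05), higher in LowMg-HFD than in LowMg-LFD (0.80, adjusted p = 0.0147) and, on the HFD, lower at low Mg2+ (-1.09). The zinc transporter gene Slc39a10 was higher on the HFD at normal Mg2+ (0.78) and lower at low Mg2+ on the HFD (-0.55), and its fat comparison at low Mg2+ gave 0.34 (adjusted p = 0.114).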

How the data were processed

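Total RNA of eWAT was sequenced as 50-base single-end reads. The authors mapped clean reads to GRCm38/mm10 with HISAT and Bowtie2 and obtained gene levels, in FPKM, by RSEM (version 1.2.31). These FPKM values were deposited. Read counts per library and the percent of reads mapped were deposited by the authors as summaries. The strand setting is not given in the sources used here. FPKM values are not counts, so that no count test was run, and precision was taken from the spread between mice.

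1 gene with a cell that is not a number was left out, and 26 symbols turned into dates by a spreadsheet were restored. Mice were grouped by their labels. Means are of FPKM, and tests used log2(FPKM + 1), which understates changes of low genes. The 8336 genes tested had, in some group, a mean over 8 FPKM and 4 or more mice over 8 FPKM. For Nr3c2 this limit was 1 FPKM (13454 genes). All 4 groups entered 1 fit of limma 3.58.1 under R 4.3.3, with a variance trend on the mean level, which gave two-sided p-values, Benjamini-Hochberg adjusted over all genes tested, with a threshold of 0.05. The fit was tested on simulated data. Motif letters were searched in RefSeq promoter windows (GRCm38.p6), and shared words in GENCODE M21 transcripts. No promoter was searched for Nr3c1 or Zbtb16.

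Alternatives were quantile normalization, median centring, a pseudocount of 0.1, no filter or that of 1 FPKM, only the groups compared, no trend, a replicate block, each mouse left out in turn, and 18 samples without LowMg-HFD replicate 4 with log2(FPKM + 1) over 3. A fit on 17 samples without the mice highest in pancreas and in epididymis markers was added after the data were seen. Most same-numbered mice did not deviate together: of 27 such pairs across groups, 5 had deviations with a correlation over 0.1 (median 0.0032). The highest were replicate 4 of NormMg-LFD with that of LowMg-LFD (0.34) and with that of LowMg-HFD (0.26). Other pairs of replicate 4 lay at -0.088 to 0.073. A shared origin of same-numbered mice was not tested. The 9 genes, the lists and the tests were chosen with earlier results of these data known. Genes outside the 9 were named where called, up to 6 a list and comparison by size, or as the 3 closest genes of each member. A result of the chaperone and coregulator list at low Mg2+ is not reported here.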

Additional observations from a re-analysis of the deposited data

Results flagged for a closer look

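In 36 sets of 4 or 5 mice, 2 values lay far from the rest of their group, where chance gives about 1 in 20. Nr3c1 was at 24.58 FPKM in NormMg-HFD replicate 3, against 28.6 to 30.2 FPKM in the other mice of that group. Tsc22d3 was at 36.34 FPKM in LowMg-LFD replicate 1, against 54.6 to 62.5 FPKM in the others.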

How the results depend on the processing

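The calls of Hsd11b1 in 3 comparisons, and those of Nr3c1 and Zbtb16 in the fat comparison at normal Mg2+, held in all 29 alternatives. Of the 9 genes, those called in the fat comparison at normal Mg2+ numbered 5, but 3 with no filter and 3 with quantile normalization, and 3 to 6 when 1 mouse was left out. They were 3 without NormMg-LFD replicate 3, NormMg-HFD replicate 3 or NormMg-HFD replicate 4. In the fat comparison at low Mg2+ the 2 calls became 1 when only the groups compared were fitted or in 17 samples, and were 1 to 2 when 1 mouse was left out (1 without LowMg-HFD replicate 1 or 2). The count of calls stayed at 1 for Mg2+ on the HFD and at 0 for Mg2+ on the LFD and for the interaction. With a replicate block 4 genes were called in the fat comparison at normal Mg2+ (Sgk1 lost, adjusted p = 0.0766) and 2 at low Mg2+. Most same-numbered mice did not deviate together, so that the block shows nothing of a shared origin.

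Centring each library on its median moved the median of all genes from 0.10 to -0.01 in the fat comparison at low Mg2+ and from 0.07 to -0.03 at normal Mg2+. The calls over all genes there went from 1036 higher and 293 lower to 593 and 531, and from 2048 and 1066 to 1580 and 1572 (1499 and 1696 with quantile normalization). For Mg2+ on the HFD they went from 465 and 1077 to 649 and 849 (786 and 878). Leaving out 1 mouse also moved the calls over all genes. In the fat comparison at low Mg2+ the 1329 calls became 800 (without LowMg-HFD replicate 2) to 1468 (without LowMg-HFD replicate 4). For Mg2+ on the HFD the 1542 calls became 921 (without NormMg-HFD replicate 3) to 1644 (without LowMg-LFD replicate 1). The directions of the called members did not turn. Signs turned only in differences that were not called, the largest of them that of Fkbp5 in the fat comparison at low Mg2+ (-0.35). Under the replicate block, for Mg2+ on the LFD, Zbtb16 was at -0.035, Sgk1 at -0.0043 and Mt2 at 0.049. In 17 samples Nr3c1 was at -0.015, Sgk1 at -0.027 and Mt1 at -0.17 there, and Fkbp5 at 0.0071 in the fat comparison at low Mg2+. In 18 samples Tsc22d3 was at -0.0015 for Mg2+ on the HFD. Nr3c2 in the fat comparison at low Mg2+ was at -0.090 with centring and -0.10 with quantile normalization. With 1 mouse left out, Mg2+ on the LFD gave -0.023 to 0.092 for Nr3c1, -0.031 to 0.33 for Hsd11b1, -0.59 to 0.079 for Fkbp5, -0.21 to 0.28 for Zbtb16, -0.15 to 0.24 for Sgk1, -0.20 to 0.24 for Mt1 and -0.44 to 0.17 for Mt2. Mg2+ on the HFD gave -0.13 to 0.13 for Tsc22d3. The fat comparison at low Mg2+ gave -0.040 to 0.16 for Nr3c2, -0.66 to 0.0071 for Fkbp5 and -0.015 to 0.43 for Mt1. The causes were not tested.

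FPKM values carry no read counts, so that the counting error of single values is unknown, which bears most on Nr3c2.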

Other observations

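Genes of the steroid, sodium and metal lists were high in some mice of several groups. These were replicate 4 of NormMg-LFD and LowMg-HFD and, for some genes, LowMg-LFD replicate 4 and NormMg-LFD replicate 3. Cyp11a1, the first enzyme of steroid synthesis, was at 32.6 FPKM in NormMg-LFD replicate 4 and 9.11 in LowMg-HFD replicate 4, against a median of 0.50 FPKM over all mice. Star, which carries cholesterol into mitochondria, was at 5.63 and 3.95 FPKM in these mice, against 1.26. Scnn1a, a subunit of the epithelial sodium channel, was at 10.3 and 6.98 FPKM there, against 0.60, and also at 5.61 in LowMg-LFD replicate 4 and 5.50 in NormMg-LFD replicate 3. The sodium pump subunit gene Atp1b1 was at 57.9, 50.3, 42.4 and 19.7 FPKM in the same 4 mice, against 4.00. Mt3, a further metallothionein gene, was at 39.9, 29.1, 16.5 and 18.6 FPKM in them, against 1.23. Of the 9 genes, Nr3c1, Nr3c2, Tsc22d3, Sgk1, Mt1 and Mt2 were the highest of NormMg-LFD in replicate 4. Without it, 5 of the 9 genes were called in the fat comparison at normal Mg2+, and the Nr3c1 difference there was -0.42 (limma, adjusted p = 0.011). These genes were picked after their values were seen.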
